A study of Mus musculus with 24 samples.

Results

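Metallothioneins and the machinery of cellular zinc balance were followed through 5 genes out of the 55416 gene identifiers of a mouse kidney RNA sequencing study. They were listed by name: the metallothioneins Mt1 and Mt2, the zinc-sensing transcription factor Mtf1, the zinc exporter Slc30a1 and the zinc importer Slc39a14. All 5 were found by symbol, each with 1 Ensembl identifier, and all 5 had enough counts to be among the 18005 genes tested. Poly(A)-selected RNA came from the kidney inner medulla, the innermost zone of the organ, of C57BL/6 mice aged 9 to 10 weeks. Every mouse received a single intraperitoneal injection of 100 µl, and tissue was frozen 72 h later. The 4 groups were male saline (6 libraries), male cisplatin (6), female saline (7) and female cisplatin (5), with cisplatin at 15 mg/kg in both sexes. The tissue was taken in bulk, so a level can reflect fewer or more cells of a type or less or more RNA per cell, and these cannot be told apart.

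Metallothioneins are small cytosolic proteins, rich in cysteine, that bind zinc and copper and also bind heavy metals such as cadmium and platinum. When free zinc rises, MTF1 enters the nucleus and binds metal response elements, short DNA motifs in the promoters of Mt1, Mt2 and Slc30a1. SLC30A1 (ZnT1) then exports zinc across the plasma membrane, whereas SLC39A14 (ZIP14) brings in zinc, iron and manganese and is induced by interleukin-6. Glucocorticoids and STAT3 signalling also induce metallothioneins, and in kidney tubules metallothionein is known as a protectant against cisplatin and cadmium.

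Mt1 (ENSMUSG00000031765) and Mt2 (ENSMUSG00000031762) are neighbours on chromosome 8, at chr8:94179082-94180327 and chr8:94172664-94173568 on the + strand (GRCm38, GENCODE vM21). Mtf1 (ENSMUSG00000028890) lies at chr4:124802104-124849800 (+), Slc30a1 (ENSMUSG00000037434) at chr1:191906767-191913247 (+) and Slc39a14 (ENSMUSG00000022094) at chr14:70303469-70351425 (−). Promoter windows of 300 bases, 250 before and 50 after the start of the gene, were found in the RefSeq table (GRCm38.p6) for 4 of the 5 genes. Slc39a14 had none there. The windows of the 3 genes that passed the test in males are shown because they hold the known binding motif of MTF1. They are given from 250 bases before to 30 bases after the start, 5′ to 3′, and capitals mark matches to the metal response element core, TGCACNC or TGCGCNC on either strand. The Mt1 stretch is chr8:94178839-94179118, the Mt2 stretch chr8:94172368-94172647 and the Slc30a1 stretch chr1:191906531-191906810, all on the + strand.
Mt1: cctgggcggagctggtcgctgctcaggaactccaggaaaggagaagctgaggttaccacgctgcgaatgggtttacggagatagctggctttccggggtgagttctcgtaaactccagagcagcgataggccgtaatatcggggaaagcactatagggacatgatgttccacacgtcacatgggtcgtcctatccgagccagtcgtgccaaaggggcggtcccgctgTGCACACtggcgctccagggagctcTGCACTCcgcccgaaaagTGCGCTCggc
Mt2: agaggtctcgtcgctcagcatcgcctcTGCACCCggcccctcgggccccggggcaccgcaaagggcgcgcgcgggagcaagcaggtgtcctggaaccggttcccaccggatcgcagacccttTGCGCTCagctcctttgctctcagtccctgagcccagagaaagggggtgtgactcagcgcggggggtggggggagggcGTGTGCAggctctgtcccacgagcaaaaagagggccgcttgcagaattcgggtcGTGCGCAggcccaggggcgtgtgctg
Slc30a1: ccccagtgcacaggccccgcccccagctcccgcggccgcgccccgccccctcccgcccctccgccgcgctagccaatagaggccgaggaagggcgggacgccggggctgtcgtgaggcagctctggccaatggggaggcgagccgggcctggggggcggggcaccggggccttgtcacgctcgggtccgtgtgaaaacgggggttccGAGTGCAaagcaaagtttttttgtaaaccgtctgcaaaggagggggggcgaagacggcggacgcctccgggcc

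The Mt2 window held 4 matches to the metal response element core, the Mt1 window 3 and the Slc30a1 window 2. The Mtf1 window held 0. Counting the first base of the gene as 1 and the base before it as -1, the Mt1 matches began at -23, 3 and 21, the Mt2 matches at -223, -128, -50 and 5, and the Slc30a1 matches at -43 and 31, the last beyond the stretch shown. No 2 of these matches overlapped. Among all 32851 promoter windows of that length, 25.7% held at least 1 match, 7.11% at least 2, 1.97% at least 3 and 0.517% at least 4. These shares are over windows of every base composition. The median window was 52.7% G or C, and those of Mt1, Mt2 and Slc30a1 were 60.7%, 67.7% and 73.0%. Shares among windows of like composition were not computed. The brain-enriched metallothionein Mt3 and the epithelial metallothionein Mt4 had 1 match each. The antioxidant response element core TGACNNNGC, bound by NRF2, had 1 match in Mt2 (beginning at -79) and 1 in Slc30a1 (-82), against 12.4% of all windows with a match. The STAT site TTCNNNGAA had 0 matches in the 4 windows, against 8.3% of all. These matches are descriptions of letters in a window and were chosen for known regulators of these genes. Annotated starts also differ by source and by transcript. The first GENCODE transcript of Mt1 starts 7 bases upstream of the table's start, that of Slc30a1 14 bases upstream, and that of Mt2 46 bases downstream. Other GENCODE transcripts start further downstream: 122 and 152 bases for Mt1, 242 for Mt2 and 475 for Slc30a1. Those starts lie beyond the windows, and every match listed for these genes lies upstream of them.

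**Figure D1:**
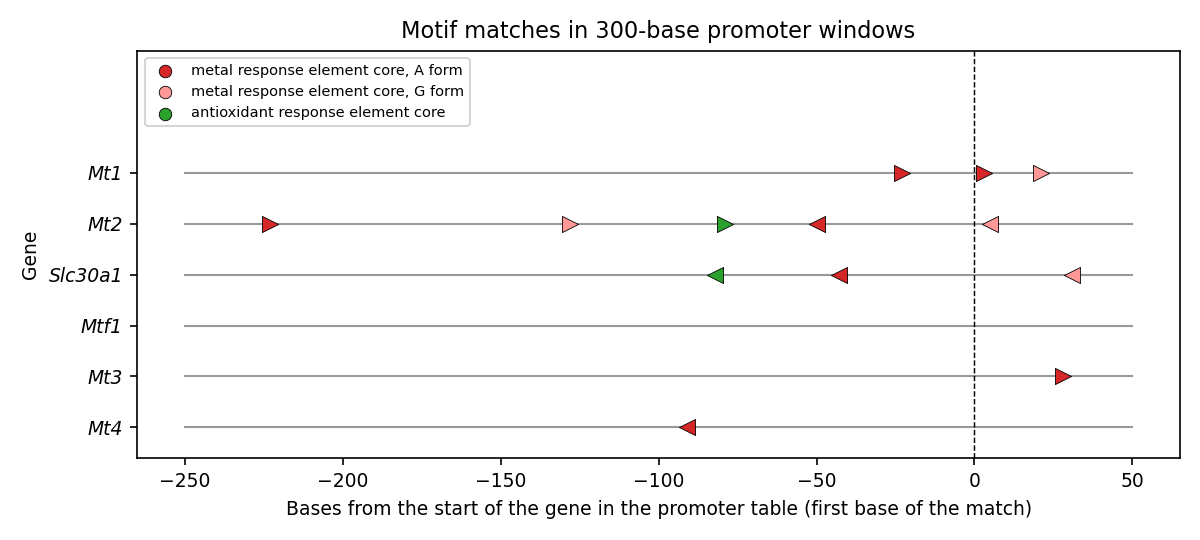
Position of motif matches in the 300-base promoter windows of Mt1, Mt2, Slc30a1, Mtf1, Mt3 and Mt4; the x axis gives bases from the start of the gene, and arrowheads point in the direction of the strand matched. The red and pink arrowheads are the A and G forms of the metal response element core (Mt2 4 matches, Mt1 3, Slc30a1 2, Mtf1 0) and the green arrowheads the antioxidant response element core.

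Total counts per library, in units of 1000000, lay between 18.1 and 27.3 and averaged 22.6 ± 2.70 (SD, n = 24). The collecting duct water channel gene Aqp2, which is made along the whole collecting duct, ranged from 3568 to 8902 counts per 1000000 (CPM) over the 24 libraries. Transcripts of the thick ascending limb, a segment of the outer medulla and cortex, were abundant as well: in male saline Umod averaged 4390 ± 2188 CPM and Slc12a1 3344 ± 1213 CPM (SD, n = 6), and 6 such markers summed to 987 to 14217 CPM over the 24 libraries. The libraries thus held outer nephron segments beside collecting duct. The secreted injury marker Lcn2, which encodes neutrophil gelatinase-associated lipocalin, was above the saline range of its sex in 6 of 6 male and 3 of 5 female cisplatin libraries. It stood at 4021, 6589, 2578, 1265, 2470 and 213 CPM in male cisplatin 1 to 6 and at 546, 111, 122, 3529 and 2097 CPM in female cisplatin 1 to 5. The saline libraries had 57.8 to 67.3 CPM in males and 49.4 to 129 CPM in females. Female cisplatin 2 and 3 were within the saline range of this marker. Erythroid transcripts separated the treatments in every library: the summed level of 5 erythroid genes was 149 to 380 CPM in male saline and 4.67 to 15.3 CPM in male cisplatin, and 97.5 to 391 CPM in female saline and 5.90 to 13.9 CPM in female cisplatin. Female cisplatin 2 and 3 had 11.9 and 13.9 CPM, so both stood far below the saline libraries by this measure. All 5 erythroid genes were called lower in both sexes, where 7.54% of all tested genes were called lower in males and 0.0722% in females.

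In males, both metallothioneins and the zinc exporter were higher after cisplatin. Mt1 rose 5.62-fold, Mt2 13.6-fold and Slc30a1 1.49-fold, while Mtf1 and Slc39a14 did not pass the test. Thus 3 of the 5 genes were called higher and 0 lower, where 13.2% of all tested genes were called higher, 7.54% lower and 20.7% in either direction. The rises were uneven: male cisplatin 1, 2 and 3 carried the high metallothionein levels, and male cisplatin 4, 5 and 6 stood near the saline libraries.

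Mt1 encodes a metallothionein made in most tissues. In the male saline libraries 1 to 6 it stood at 101, 35.9, 38.1, 77.8, 105 and 47.6 CPM. Male cisplatin 1 to 6 had 632, 675, 807, 45.8, 92.8 and 27.8 CPM. The first 3 of these lay far above the highest saline value, male cisplatin 4 and 5 lay within the saline range, and male cisplatin 6 lay below it. The group means were 67.5 ± 31.2 and 380 ± 361 CPM (SD, n = 6 each). The fitted difference on the log2 scale was 2.49 ± 0.77 (SE; 95% interval 0.90 to 4.08), and edgeR's quasi-likelihood test gave an adjusted p of 0.0257. The call did not hold in 5 of the 24 fits that left out 1 library: without male saline 2 (adjusted p = 0.0523), 3 (0.0539) or 6 (0.0516), or without male cisplatin 2 (0.0564) or 3 (0.0651).

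Mt2 encodes the sister isoform, and it moved in the same libraries. It had 1.5, 1.02, 0.285, 1.13, 3.05 and 0.472 CPM in male saline 1 to 6. Male cisplatin 1 to 6 had 27.9, 25.4, 45.1, 1.30, 1.82 and 0.547 CPM. As for Mt1, the first 3 stood above every saline library. For Mt2 the other 3 all lay within the saline range. Its log2 difference was 3.77 ± 1.06 (SE; 95% interval 1.59 to 5.95), edgeR's adjusted p was 0.0158, and the call held in all 24 fits without 1 library.

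The amount of Mt2 relative to Mt1 was higher in the libraries where both were high. For every 100 Mt1 counts there were 0.739 to 2.90 Mt2 counts over the 13 saline libraries. In male cisplatin 1, 2 and 3 there were 4.42, 3.77 and 5.59, above that whole range. Male cisplatin 4, 5 and 6 stayed within it at 2.85, 1.96 and 1.97. Female cisplatin 4 and 5, the other libraries with high Mt1, had 5.20 and 4.46. Per kilobase of exon, Mt1 in male cisplatin averaged 305 CPM and Mt2 29.0 CPM, but this gap is uncertain. Exons were pooled over all transcripts of a gene, and those of Mt1 cover its whole span of 1246 bases. Any intron of Mt1 is thus counted as exon, which would lower its value per kilobase. Of the 588 exonic bases of Mt2, 432 (73.5%) also lie in exons of Gm45774 on the opposite strand, with the strand setting of the counting not given in the sources used here. Gm45774 itself had 108 counts over all 24 libraries. Mt1 shared 0 of its 1292 windows of 50 bases with any other gene, so its reads and those of Mt2 can be told apart.

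**Figure D2:**
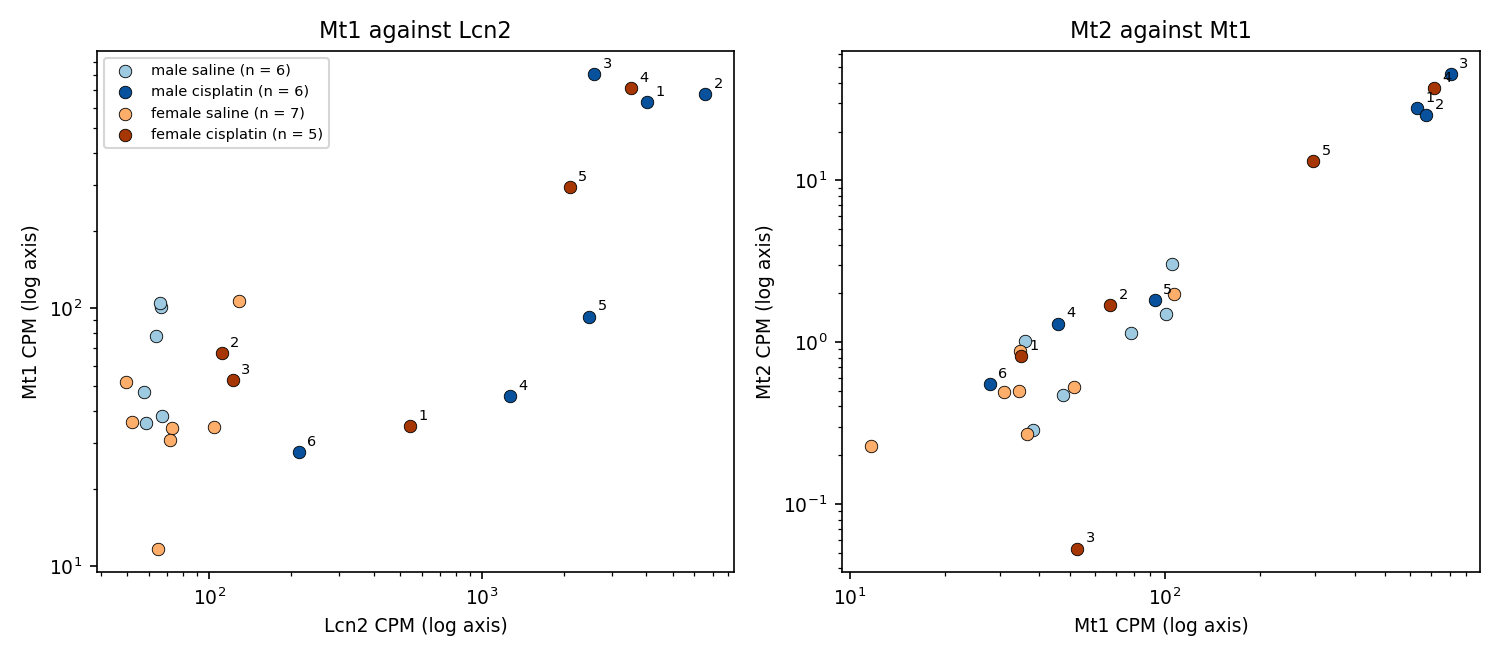
Left, CPM of Mt1 against CPM of the injury marker Lcn2; right, CPM of Mt2 against CPM of Mt1; all axes are logarithmic, each point is 1 library, colours give the groups, and numbers mark the cisplatin replicates. Male cisplatin 1, 2 and 3 and female cisplatin 4 and 5 lie apart at the top with Mt1 between 296 and 807 CPM, while male cisplatin 5 has 92.8 CPM of Mt1 at an Lcn2 level of 2470 CPM.

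The injury marker and the metallothioneins varied together, but did not move in step in every library. Likeness was measured by Pearson's r and Spearman's rho of log2 CPM centred on the group mean. Mt1 and Lcn2 had r = 0.753 (rho = 0.753) over all 24 libraries, 0.808 (0.8) over 11 cisplatin and 0.404 (0.363) over 13 saline libraries. For Mt2 and Lcn2 these were 0.804 (0.762), 0.832 (0.818) and 0.585 (0.538). The few high cisplatin libraries weigh on these values. Male cisplatin 3 and male cisplatin 5 had nearly the same Lcn2 level, 2578 and 2470 CPM. Their Mt1 levels were 807 and 92.8 CPM, and their Mt2 levels 45.1 and 1.82 CPM. Male cisplatin 4, with 1265 CPM of Lcn2, had 45.8 CPM of Mt1, less than 4 of the 6 male saline libraries.

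The genes Mt3 and Mt4 lie in the same cluster on chromosome 8. Mt3 was low, at 0.485 ± 0.205 CPM in male saline and 0.163 ± 0.107 CPM in male cisplatin (SD, n = 6 each), from 0 to 16 counts per library. All 6 male cisplatin libraries lay below the male saline range of 0.314 to 0.857 CPM, and the log2 difference was -1.53 ± 0.52 (SE; edgeR's adjusted p = 0.038). This fall, opposite in direction to Mt1 and Mt2, did not pass without male saline 1 or 5 or male cisplatin 1, 3 or 5 (adjusted p up to 0.136 over all alternatives). In females Mt3 was 0.596 ± 0.328 CPM under saline (n = 7) and 0.407 ± 0.205 CPM under cisplatin (n = 5), and all 5 cisplatin libraries lay within the saline range. Mt4 had 3 counts in female saline 6, 1 in female cisplatin 5 and 0 in every other library, and was not tested.

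Mtf1, the regulator, was the steadiest of the 5 genes. Male saline libraries had 31.9 to 36.2 CPM with a median of 34.5, and male cisplatin 1 to 6 had 37.7, 33.8, 26.7, 28.2, 27.5 and 33.0 CPM. Male cisplatin 3, 4 and 5 lay below the saline range and male cisplatin 1 above it. These deviations did not follow the metallothioneins: male cisplatin 3, the library highest in Mt1, was the lowest in Mtf1. Between Mtf1 and Mt1, r was 0.114 (rho = -0.00909) over the 11 cisplatin libraries and -0.698 (rho = -0.434) over the 13 saline libraries. For Mtf1 and Mt2 it was 0.205 (rho = 0.109) and -0.371 (rho = -0.319). Under saline the relation was thus inverse. On the log2 scale the group difference was -0.14 ± 0.10 (SE; 95% interval -0.33 to 0.06; edgeR's adjusted p = 0.317). With a tubule marker score as a covariate (the mean centred log2 CPM of 18 markers of outer nephron segments, proximal tubule and thick ascending limb), it became -0.27 with an adjusted p of 0.0324. Transcript level does not report where the MTF1 protein is or how much zinc it binds.

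Slc30a1, the exporter, had 41.5, 31.8, 44.0, 44.7, 40.9 and 54.3 CPM in male saline 1 to 6. Male cisplatin 1 to 6 had 112, 63.6, 68.1, 48.4, 37.1 and 53.5 CPM. Again male cisplatin 1, 2 and 3 lay above the saline range and the other 3 within it, with male cisplatin 1 the highest by a wide margin. The log2 difference between the groups was 0.57 ± 0.20 (SE; 95% interval 0.15 to 0.99), and edgeR's adjusted p was 0.0475. This call was close to the threshold and passed in 12 of 32 alternatives (adjusted p from 0.0219 to 0.336). It was lost in 15 of the 24 fits without 1 library, among them each of male saline 1 to 5 and male cisplatin 1 to 3. Without male cisplatin 1 the log2 fold change was 0.34.

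Slc39a14, the importer, stood on either side of the saline range in the male cisplatin libraries. Male saline libraries 1 to 6 had 16.4, 16.2, 18.1, 19.3, 14.8 and 17.6 CPM. Male cisplatin 1, 2 and 3 had 26.0, 38.9 and 29.5 CPM, all above that range, and male cisplatin 4, 5 and 6 had 14.1, 11.8 and 13.1 CPM, all below it. No male cisplatin library lay within the saline range, and the group difference did not pass (0.38 ± 0.23 on the log2 scale, SE, 95% interval -0.09 to 0.84, edgeR's adjusted p = 0.231).

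**Figure D3:**
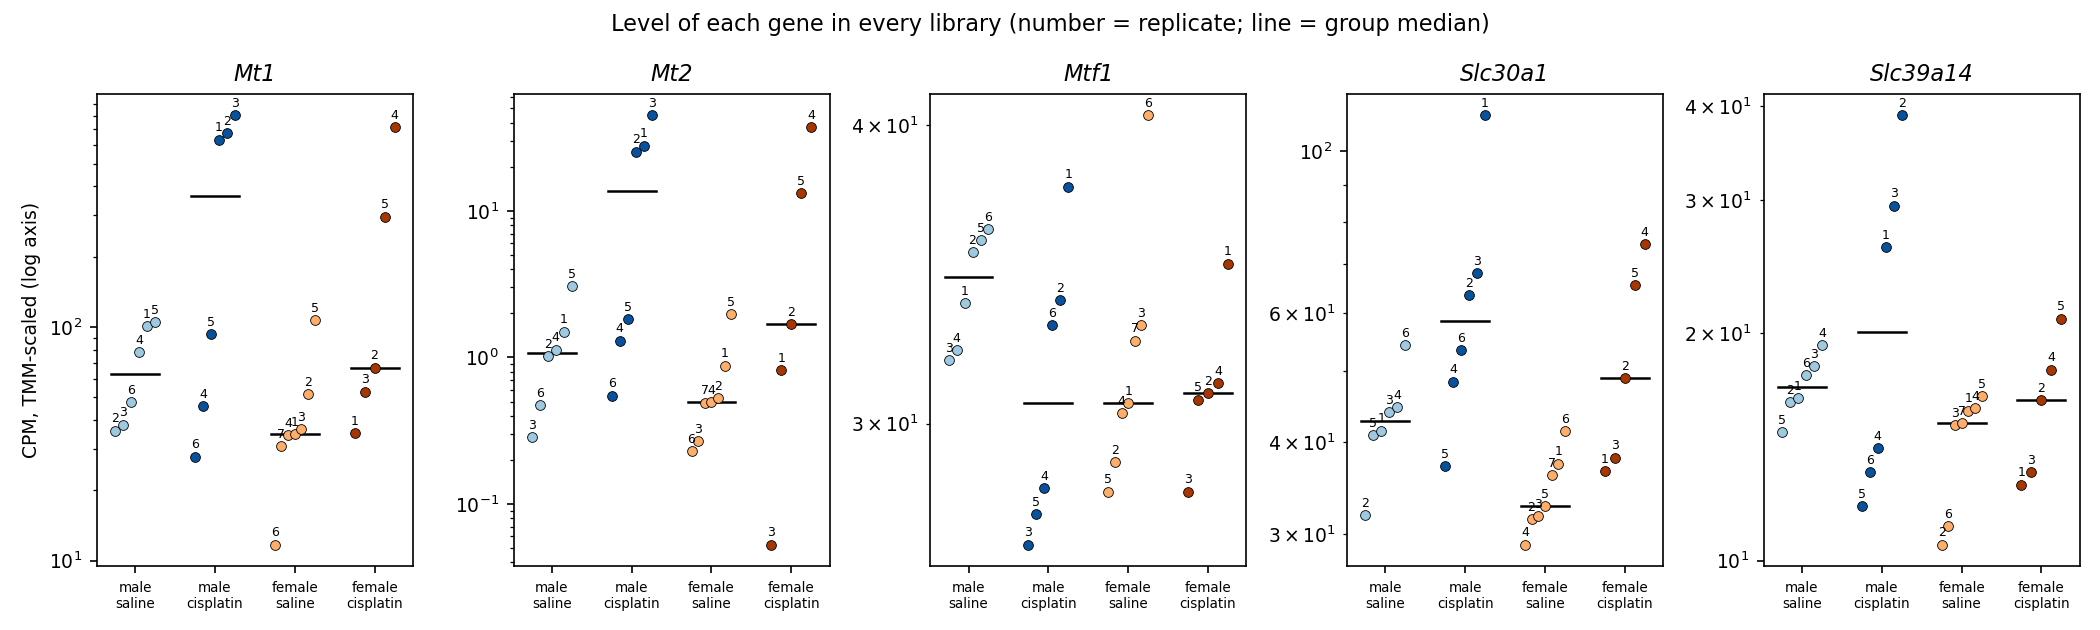
CPM of Mt1, Mt2, Mtf1, Slc30a1 and Slc39a14 in every library, on log axes, by group; points are libraries, numbers are replicates and lines are group medians. Male cisplatin 1, 2 and 3 and female cisplatin 4 and 5 are the highest points of their groups for Mt1, Mt2 and Slc39a14, whereas Mtf1 spans 26.7 to 40.4 CPM over all 24 libraries.

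In females, 2 of the 5 cisplatin libraries lay above the saline range of both metallothioneins, and none of the 5 genes passed the test. With 0 of the 5 genes called, females had few calls anywhere: 0.2% of the tested genes were called higher, 0.0722% lower and 0.272% in either direction. Mt1 in female saline 1 to 7 was 34.8, 51.6, 36.4, 34.5, 107, 11.7 and 30.9 CPM. Female cisplatin 1 to 5 had 35.0, 67.0, 52.8, 714 and 296 CPM. Female cisplatin 4 and 5 lay above every saline library and the other 3 within the saline range, which was wide because of female saline 5 and 6. The fitted log2 difference was 2.41 ± 0.75 (SE; 95% interval 0.87 to 3.96), with edgeR's adjusted p at 0.171. Without female cisplatin 4 it was 1.37 (adjusted p = 0.738).

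Mt2 in female saline 1 to 7 was 0.879, 0.525, 0.269, 0.495, 1.97, 0.228 and 0.491 CPM. Female cisplatin 1 to 5 had 0.820, 1.69, 0.0528, 37.1 and 13.2 CPM. Female cisplatin 3, the lowest of all 24 libraries, rests on 1 count, beside 1001 counts of Mt1 in the same library. For Mt2 the fitted log2 difference was 3.97 ± 1.06 (SE; 95% interval 1.79 to 6.15), with edgeR's adjusted p at 0.116. It passed with DESeq2 (3.92, adjusted p = 0.0208) and without female cisplatin 3 (4.29, adjusted p = 0.0433), and fell to 2.56 without female cisplatin 4 (adjusted p = 0.634).

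Slc30a1 in female saline 1 to 7 was 37.4, 31.4, 31.7, 29.0, 32.7, 41.4 and 36.1 CPM. Female cisplatin 1 to 5 had 36.5, 48.9, 38.1, 74.6 and 65.6 CPM. Female cisplatin 2, 4 and 5 lay above the saline range, 1 more than for the metallothioneins. Its fitted log2 difference was 0.62 ± 0.20 (SE; 95% interval 0.20 to 1.05), with edgeR's adjusted p at 0.188. For Slc39a14, female saline libraries had 10.5 to 16.5 CPM (median 15.2) and female cisplatin 1 to 5 had 12.6, 16.3, 13.1, 17.9 and 20.9 CPM. Only female cisplatin 4 and 5 exceeded the saline range of Slc39a14, and by less than male cisplatin 1, 2 and 3 did theirs. Mtf1 had 28.1 to 40.4 CPM in female saline (median 30.6) and 35.0, 30.9, 28.1, 31.2 and 30.7 CPM in female cisplatin 1 to 5. The log2 fold changes were 0.17 ± 0.23 for Slc39a14 and -0.04 ± 0.10 for Mtf1 (SE), with adjusted p of 0.748 and 0.881 in edgeR's test.

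**Figure D4:**
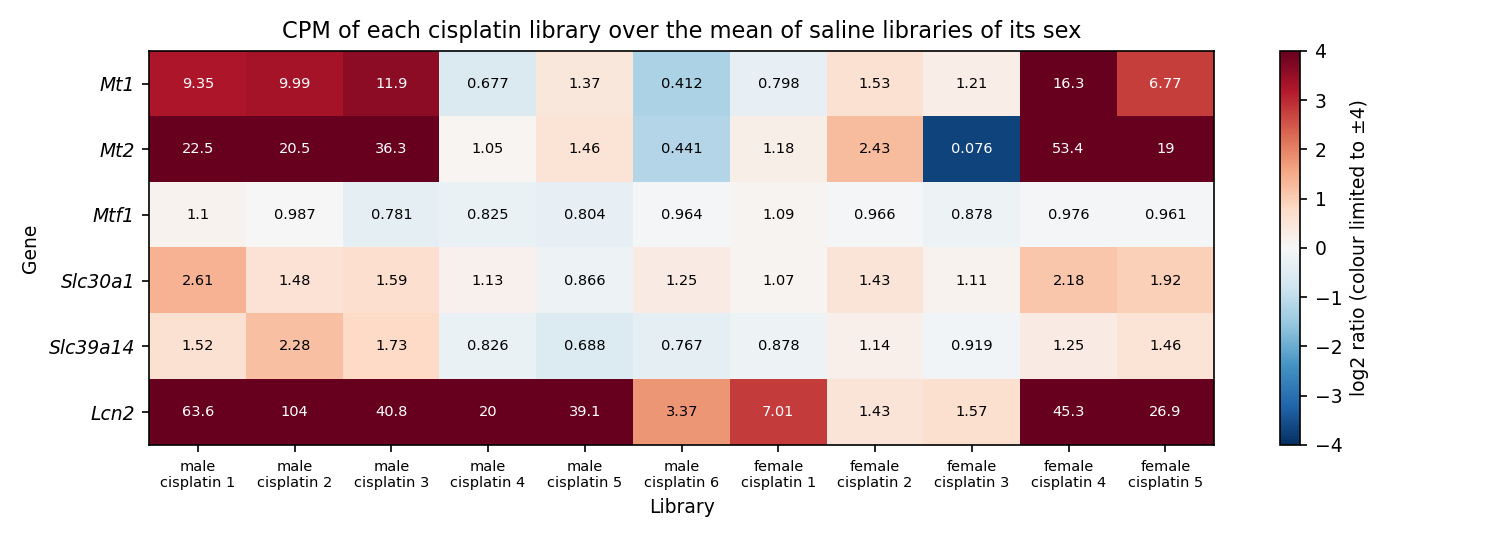
CPM of each cisplatin library divided by the mean CPM of the saline libraries of its sex, for the 5 genes and the injury marker Lcn2; colour gives the log2 ratio, limited to 4 either way, and the printed number the ratio. Mt1 stands at 9.35, 9.99 and 11.9 in male cisplatin 1 to 3 and at 16.3 and 6.77 in female cisplatin 4 and 5, but at 0.412 to 1.53 in the other 6 libraries; the Mt2 ratio of 0.076 in female cisplatin 3 rests on 1 count.

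The responses of the 2 sexes were compared through the interaction term, the female minus the male log2 fold change. It was -0.08 ± 1.04 for Mt1 (95% interval -2.23 to 2.07), 0.20 ± 1.41 for Mt2 (-2.71 to 3.11) and 0.05 ± 0.29 for Slc30a1 (-0.55 to 0.65). For Mtf1 it was 0.10 ± 0.14 (-0.18 to 0.38) and for Slc39a14 -0.20 ± 0.32 (-0.87 to 0.46). The fitted fold changes of the metallothioneins were thus close in size in males and females, yet their intervals are wide and include 4-fold differences between the sexes in either direction. Of the 5 genes 0 were called, with adjusted p from 0.959 to 0.993 in edgeR's test. Over all genes edgeR called 0 (0% of those tested), DESeq2 also called 0, and 772 had an unadjusted p under 0.05. A call in males and none in females is therefore not a measured difference between the sexes.

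**Figure D5:**
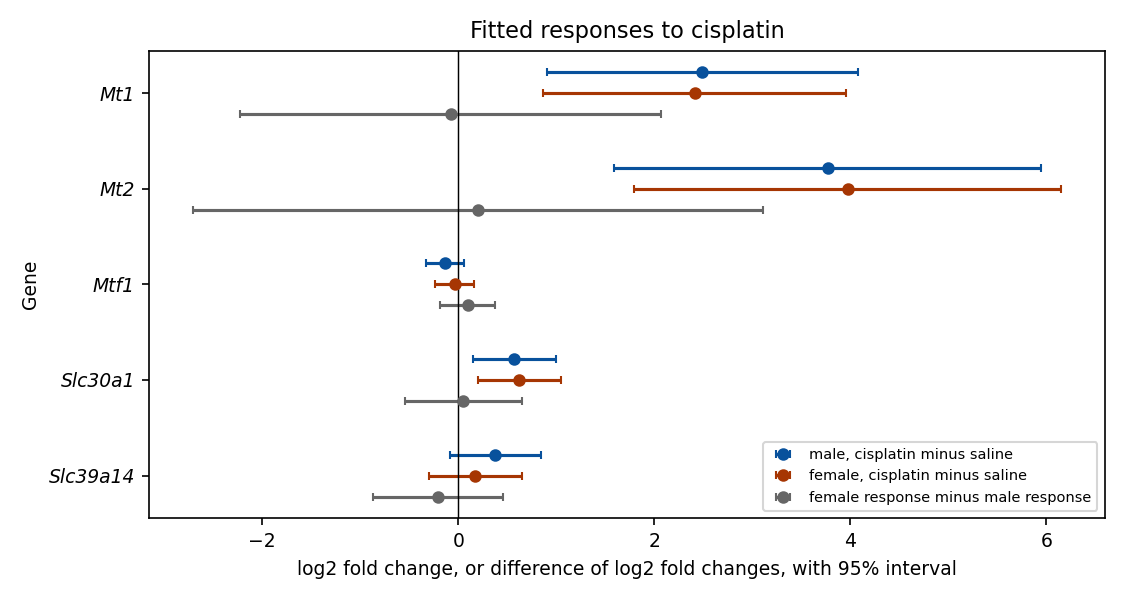
Fitted log2 fold changes of cisplatin over saline in males and females, and the difference of the 2 responses (female minus male), for the 5 genes; points are estimates and bars 95% intervals. Male and female points of Mt1 (2.49 and 2.41) and of Slc30a1 (0.57 and 0.62) lie close together, and every interval of the difference includes 0.

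As the mean of the responses of both sexes, Mt1 rose 5.48-fold, Mt2 14.6-fold and Slc30a1 1.51-fold. These were 3 of the 5 genes called higher, against 16.2% of all tested genes called higher, 10.9% lower and 27.1% in either direction. The log2 values were 2.45 ± 0.54 for Mt1 (adjusted p = 0.00244), 3.87 ± 0.75 for Mt2 (0.00108) and 0.60 ± 0.14 for Slc30a1 (0.0046), with SE and edgeR's test. All 3 calls held in each of the 24 fits without 1 library. Mtf1 (-0.09 ± 0.07, adjusted p = 0.357) and Slc39a14 (0.28 ± 0.16, adjusted p = 0.2) did not pass.

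Under saline, Mt1 had the highest level per exon length and Slc30a1 the next in both sexes. Mt2 and Slc39a14 differed by less than the SD of Mt2 (1.68 CPM per kilobase in males, 1.03 in females), so their order is uncertain. The Mt2 level is also uncertain because of its overlap with Gm45774. Per kilobase of exon, Mt1 averaged 54.2 CPM in males and 35.2 in females, Slc30a1 8.17 and 6.53, Mtf1 3.84 and 3.59, Mt2 2.11 and 1.18, and Slc39a14 1.62 and 1.36. Every mean was lower in females, but 0 of the 5 genes passed the comparison of female with male saline, where 0.189% of all tested genes did (0.0611% higher and 0.128% lower in females). The female minus male log2 differences were -0.63 ± 0.71 for Mt1, -0.88 ± 1.08 for Mt2, -0.10 ± 0.09 for Mtf1, -0.32 ± 0.20 for Slc30a1 and -0.26 ± 0.22 for Slc39a14 (SE), each with an adjusted p of 1 in edgeR's test. Under cisplatin 0 of 5 passed as well (0.156% of all tested genes passed, 0.106% higher and 0.05% lower in females), with -0.70 ± 0.77 for Mt1, -0.68 ± 0.97 for Mt2 and -0.46 ± 0.24 for Slc39a14 and adjusted p of 0.772, 0.827 and 0.532.

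The order of the group means was the same for both metallothioneins: male cisplatin, female cisplatin, male saline, female saline. For Mt1 these were 380 ± 361, 233 ± 289, 67.5 ± 31.2 and 43.8 ± 30.1 CPM, and for Mt2 17.0 ± 18.6, 10.6 ± 15.8, 1.24 ± 0.989 and 0.695 ± 0.603 CPM (SD). Slc30a1 followed that order at 63.8 ± 26.1, 52.8 ± 16.9, 42.9 ± 7.26 and 34.2 ± 4.24 CPM, and each pair of neighbours in these 3 orders differed by less than the larger of their SDs except the 2 saline means of Slc30a1. Slc39a14 had 22.2 ± 11.0 CPM in male cisplatin, 17.1 ± 1.60 in male saline, 16.1 ± 3.43 in female cisplatin and 14.3 ± 2.43 in female saline. Mtf1 had 34.2 ± 1.85, 32.0 ± 4.10, 31.2 ± 2.46 and 31.1 ± 4.34 CPM in male saline, female saline, female cisplatin and male cisplatin. Within the male cisplatin group the SD was 109% of the mean for Mt2, 94.9% for Mt1, 49.5% for Slc39a14, 40.8% for Slc30a1 and 13.9% for Mtf1.

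The other zinc transporters were read against the share of all tested genes called in males, 13.2% higher and 7.54% lower. Of the 9 further SLC30 exporters 6 were tested, and 0 rose or fell in males or in females (median log2 fold change -0.02 in males, 0.02 over all genes tested). As the mean of both sexes 1 of the 6 was called, where 27.1% of all tested genes were called in either direction. This was Slc30a7, which loads zinc into the early secretory pathway (0.26 ± 0.10 on the log2 scale, edgeR's adjusted p = 0.0442). The Slc30a7 call held in 10 of 31 alternatives. Of 13 further SLC39 importers 12 were tested, and in males 3 rose and 1 fell (median -0.05). Slc39a1, a widely expressed plasma membrane importer, rose from 111 ± 5.71 to 198 ± 47.8 CPM (0.84 ± 0.14, adjusted p = 0.000571). Slc39a4, the importer of dietary zinc in the intestine, rose from 9.17 ± 2.37 to 17.9 ± 6.22 CPM (0.96 ± 0.20, adjusted p = 0.00277). Slc39a5 rose from 0.849 ± 0.334 to 2.06 ± 1.64 CPM (1.25 ± 0.36, adjusted p = 0.0171), and did not pass without male cisplatin 5, which had 5.39 CPM. Slc39a10, an importer whose transcription MTF1 is known to repress, fell from 63.9 ± 6.52 to 38.2 ± 17.9 CPM (-0.74 ± 0.23, adjusted p = 0.0253), a call lost without male cisplatin 2, 3 or 5. In females 0 of the 12 importers passed, where 0.272% of all tested genes were called in either direction. At that share, 0 calls among the importers or the exporters tells little about these genes in females. As the mean of both sexes the same 4 were called, where 16.2% of all tested genes were called higher and 10.9% lower. Of these calls, that of Slc39a5 held in 11 of 31 alternatives.

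Among 5 genes linked to MTF1 (Gclc, Slc39a10, Ndrg1, Csrp1 and Pgf), Slc39a10 was the 1 that changed in males (median of the list 0.08), a share near the 20.7% called over all tested genes, and 0 changed in females, where 0.272% of all did. As the mean of both sexes Gclc, the catalytic subunit of the enzyme that starts glutathione synthesis, also rose (0.30 ± 0.11, adjusted p = 0.0492), and this call held in 7 of 31 alternatives. Copper shares metallothionein with zinc, and of 10 copper-handling genes 2 rose in males (median 0.37), close to the 13.2% of all tested genes called higher. Slc31a1, the copper importer CTR1, which can also carry cisplatin, rose from 89.6 ± 10.1 to 127 ± 29.4 CPM (0.50 ± 0.14, adjusted p = 0.0192), a call lost without male cisplatin 2 or 3. Atox1, a copper chaperone, rose from 49.8 ± 4.87 to 72.4 ± 34.2 CPM (0.54 ± 0.19, adjusted p = 0.0435), and this call held in 15 of 32 alternatives. Of the 10 copper genes 0 passed in females. As the mean of both sexes Slc31a1, Atox1 and also Cp were called higher, where 16.2% of all tested genes were. Cp is the gene of the copper-carrying ferroxidase ceruloplasmin (0.39 ± 0.13, edgeR's adjusted p = 0.0315). It did not pass without male saline 1, male cisplatin 1 or 2, or female cisplatin 1 or 4.

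Pathways that are known to induce metallothionein apart from metals were read from 2 further lists. Of 10 glucocorticoid-linked genes 2 rose and 1 fell in males (median 0.17), where 13.2% of all tested genes were called higher and 7.54% lower. Fkbp5, a chaperone gene strongly induced by glucocorticoids, rose from 28.1 ± 8.32 to 108 ± 90.4 CPM (1.94 ± 0.57, adjusted p = 0.0201), a call lost without male cisplatin 3. Cebpd, a transcription factor gene of the acute phase, rose from 15.5 ± 4.25 to 49.2 ± 26.0 CPM (1.66 ± 0.45, adjusted p = 0.014). The glucocorticoid receptor gene Nr3c1 fell from 143 ± 11.4 to 85.7 ± 24.6 CPM (-0.74 ± 0.14, adjusted p = 0.00172). In females 0 of these 10 passed, where 0.272% of all tested genes were called in either direction. The female value of Fkbp5 on the log2 scale was 2.10 (edgeR's adjusted p = 0.116). Over both sexes 3 were called higher and 3 lower, against 16.2% and 10.9% of all tested genes, so the list went both ways. Beside Fkbp5, Cebpd and Nr3c1 these were Zbtb16, a glucocorticoid-induced transcription factor gene (1.54 ± 0.40, adjusted p = 0.00753), the kinase gene Sgk1 (-0.60 ± 0.19, adjusted p = 0.0213) and the phosphatase gene Dusp1 (-0.55 ± 0.18, adjusted p = 0.0295). Adjusted for the tubule marker score, Zbtb16 had a value of 0.46 (adjusted p = 0.319), and Dusp1 did not pass without male saline 5 or female cisplatin 2.

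Of 10 genes of interleukin-6 and STAT3 signalling 5 rose and 0 fell in males (median 0.80), where 13.2% of all tested genes were called higher and 7.54% lower. In females 2 rose (median 0.45), where 0.2% of all were called higher. Over both sexes the same 5 as in males rose, where 16.2% of all tested genes were called higher. The receptor gene Lifr fell (-0.15 ± 0.05, edgeR's adjusted p = 0.0254), where 10.9% were called lower. Stat3 itself rose from 122 ± 8.91 to 263 ± 101 CPM in males (1.11 ± 0.21, adjusted p = 0.00155). Socs3, the feedback inhibitor induced by STAT3, rose from 11.5 ± 1.70 to 140 ± 75.7 CPM in males (adjusted p = 0.000103) and from 12.5 ± 4.87 to 78.7 ± 72.3 CPM in females (adjusted p = 0.00571). The Socs3 call in females did not hold without female cisplatin 4. Bcl3, an atypical IkB protein gene, rose from 6.39 ± 1.3 to 35.2 ± 10.6 CPM in males and from 6.83 ± 0.883 to 22.9 ± 15.9 CPM in females (adjusted p = 2.86e-05 and 0.00416). Bcl3 stood at 17.3 CPM or more in all 6 male cisplatin libraries, above the saline maximum of 7.73, a pattern unlike that of Mt1. The immediate early genes Junb (1.22 ± 0.28, adjusted p = 0.00586) and Fos (2.57 ± 0.75, adjusted p = 0.0201) rose in males, and Fos did not pass without male cisplatin 5.

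Cell type markers moved with some of these libraries. The summed level of 12 proximal tubule markers was 166 to 1004 CPM in male saline and 94.8, 66.9, 267, 640, 1071 and 231 CPM in male cisplatin 1 to 6. In females it was 180 to 634 CPM under saline and 157, 194, 449, 127 and 77.0 CPM in female cisplatin 1 to 5. Of the 12 markers 0 were called in either sex, where 20.7% of all tested genes were called in males and 0.272% in females. Their median log2 fold change was -0.50 in males and -0.51 in females. Male cisplatin 1 and 2 and female cisplatin 4 and 5, which had high metallothionein, were the 4 libraries with the lowest sums, and male cisplatin 3, with the highest Mt1, lay within the male saline range. Male cisplatin 5, with the highest sum, had an Mt1 level inside the saline range.

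The tubule marker score was -1.66, -1.47, 0.16, 0.75, 0.31 and -0.30 in male cisplatin 1 to 6 and -0.27, 0.01, 0.73, -0.58 and -1.23 in female cisplatin 1 to 5. With it as a covariate the male log2 fold change of Mt1 was 1.90 (adjusted p = 0.122), of Mt2 3.06 (0.0558) and of Slc30a1 0.26 (0.336) in edgeR's test, so these 3 calls were lost in males. As the mean of both sexes Mt1 (1.89) and Mt2 (3.11) still passed, with adjusted p of 0.0457 and 0.0164, and Slc30a1 (0.37, adjusted p = 0.0533) did not. The male calls of Mt3 (adjusted p = 0.136), Slc39a10 (0.0773), Atox1 (0.0785), Fkbp5 (0.13) and Cebpd (0.0686) were lost with this covariate too. Of 6 thick ascending limb markers Egf was called lower in males, and the summed level was 1969 to 8673 CPM in male cisplatin and 2690 to 14217 CPM in male saline. Markers of endothelium (4 of 6) and of fibroblasts (4 of 5) fell in males, where 7.54% of all tested genes were called lower, and 2 of 5 urothelial markers rose, where 13.2% were called higher. Of 8 principal cell markers the water channel genes Aqp3 and Aqp4 were called lower in males and Scnn1b higher. Of 9 macrophage and monocyte markers 2 rose in males (Cd68 and Cd14) and 1 fell (Adgre1), and the median log2 fold change of the list was -0.50. Their summed levels were 133 to 248 CPM in male cisplatin and 96.3 to 198 CPM in male saline. Within that sum Cd14 went from 22.1 ± 2.89 CPM in male saline to 101 ± 44.2 CPM in male cisplatin. Summed neutrophil markers stayed at 1.76 CPM or less in every library. The tubule marker score is itself made of transcripts that can differ after cisplatin, as Egf did in males. A fit with it as a covariate therefore does not separate composition from response. The part of tissue composition in the metallothionein result was not tested.

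The genes whose levels varied most like each of the 5 were found among 11679 tested genes with a mean of at least 5 CPM, by Pearson's r of log2 CPM centred on the group mean over all 24 libraries. These correlations describe libraries that share depth and composition, and the high values rest in part on the few cisplatin libraries that stood apart, so r over the 13 saline libraries is given beside each. For Mt1 the closest were Slc1a5, a glutamine transporter gene (r = 0.933, rho = 0.922, saline 0.846), Tap2, a peptide transporter gene of antigen presentation (r = 0.93, rho = 0.935, saline 0.856), and Fkbp5 (r = 0.922, rho = 0.886, saline 0.611). For Mt2 they included Trabd (r = 0.905, rho = 0.861, saline 0.335) and the chromatin protein gene Hmgb2 (r = 0.893, rho = 0.903, saline 0.51). Mt1 and Mt2 were themselves correlated across the 13 saline libraries (r = 0.786, rho = 0.791).

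The regulator and the transporters had other neighbours. Mtf1 varied most like the kinase gene Hipk1 (r = 0.919, rho = 0.892, saline 0.921), then Tpm4 (0.854, rho = 0.802, saline 0.787) and Sertad2 (0.849, rho = 0.835, saline 0.759). The likeness of Mtf1 and Hipk1 was as high in the saline libraries as over all 24. Slc30a1 varied most like the double-stranded RNA receptor gene Tlr3 (r = 0.897, rho = 0.79, saline 0.564), the p53 target gene Ccng1 (r = 0.897, rho = 0.918, saline 0.83) and Slc25a22 (r = 0.894, rho = 0.78, saline 0.375). Slc39a14 varied most like Micall1 (r = 0.896, rho = 0.895, saline 0.75), the integrin gene Itga6 (r = 0.868, rho = 0.896, saline 0.636) and Srxn1, which encodes sulfiredoxin (r = 0.863, rho = 0.848, saline 0.551). Between Slc30a1 and Mt1 r was 0.597 (rho = 0.598) over all 24 libraries. It was 0.778 (rho = 0.727) over the 11 cisplatin libraries, where the few high libraries stand apart, and -0.255 (rho = -0.28) over the 13 saline libraries. Slc39a14 varied more closely with Mt1: r was 0.752 (rho = 0.778) over all 24 libraries. Over the cisplatin libraries it was 0.85 (rho = 0.8) and over the saline libraries 0.24 (rho = 0.225).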

How the data were processed

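RNA of 24 inner medulla libraries was analysed from the whole-number counts per gene that the authors deposited. Tools listed in the submitters' processing notes are Trim Galore 0.6.7, Subread 2.0.1, featureCounts, DESeq2 1.28.1 and mm10, without roles. For the aligner, the annotation release and strandedness, settings were not given in the sources used here. Symbols were found for 52083 of 55416 identifiers, and those without held 0.24% of counts. No label says that 1 library is 1 mouse, so p-values measure the spread between libraries, which may be technical. No 2 libraries of a group were copies (chi-square per gene at least 7.88 over 61 pairs).

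Genes were kept by filterByExpr (minimum count 10; 18005 kept), libraries were scaled by TMM, and group means were fitted to all 24 libraries with the quasi-likelihood test of edgeR 4.0.16 (R 4.3.3, limma 3.58.1), with Benjamini-Hochberg adjustment over all tested genes and a threshold of 0.05. The common biological coefficient of variation was 0.251. The contrasts were cisplatin against saline in each sex, their difference and their mean, and female against male under each treatment. The script was tested on simulated data. CPM uses TMM-scaled totals. Likeness uses log2 CPM with a prior count of 2. Exon lengths and gene coordinates come from GENCODE vM21 (GRCm38) and promoters from a RefSeq table (GRCm38.p6).

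The genes and lists were chosen with earlier results of these data known. Named were the 5 genes, of each further list up to 6 genes past the threshold in males or females, the 3 genes most like each of the 5 (at least 5 CPM; 1 of them is not reported here), and Lcn2. Some items were added after their values were seen. These included the list genes called only in the mean of both sexes (Slc30a7, Gclc, Cp, Zbtb16, Sgk1, Dusp1 and Lifr). They also included single cell type markers, Gm45774 and the correlations of Mt1 or Mt2 with Slc30a1, Slc39a14, Mtf1 or Lcn2. Alternatives were total-count and RLE scaling, no filter, the compared groups alone, the replicate number as a block, the tubule marker score as a covariate, DESeq2 1.42.0, leaving out each library, and leaving out 3 libraries of divergent composition together (male cisplatin 5, female saline 1 and 6).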

Additional observations from a re-analysis of the deposited data

Results flagged for a closer look

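Levels of Mt1, Mt2 and Mtf1 in 3 cases lay far from the rest of their group by Dixon's gap test, out of 20 combinations of gene and group, where chance flags about 1 in 20. Mt1 in female saline 5 was 107.0 CPM, against 11.7 to 51.6 CPM in the other 6 female saline libraries. Mt2 in the same library was 1.97 CPM, against 0.228 to 0.879 CPM in the others. That library also had the highest Lcn2 level of the saline libraries, 129 CPM. Mtf1 in female saline 6 was 40.4 CPM, against 28.1 to 33.0 CPM in the others; this library had the lowest Mt1 level of all 24 (11.7 CPM) and the lowest summed thick ascending limb markers (987 CPM).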

How the results depend on the processing

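Of 3324 values recomputed for 105 results, 3088 counted as the same. For a gene this means the same side of the threshold, and for a number of genes called a value close to the main one. A change of direction with a call in either fit occurred 0 times. Values without a call could change sign, as Mtf1 in females did (-0.037 in the main fit, -0.096 to 0.028 over the alternatives). The male Slc30a1 call was the least stable among the 5 genes: it was lost with total counts only (0.52), no filter (0.56), the compared groups alone (0.57), the replicate block (0.56) and the tubule marker score (0.26), and leaving out 1 library gave 0.34 to 0.68. The male Mt1 value was 2.43 (not called) with the block and 1.90 with the score, and 2.13 to 2.73 without 1 library. The male Mt2 value was 3.06 (not called) with the score. With the score Mtf1 was called lower in males (-0.27) and in the mean of both sexes (-0.18), and the mean of Slc30a1 (0.37) was not called. In females Mt2 was called with DESeq2 (3.92) and ranged from 2.56 to 4.45 without 1 library.

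Genes called in females numbered 49, and 85 with no filter, 20 with the compared groups alone, 16 with the replicate block, 29 with the score, 32 without the 3 divergent libraries, 237 with DESeq2 and 21 to 139 without 1 library. In males 3731 became 2402 with the compared groups alone, 2407 with the score and 2554 to 5268 without 1 library. In the comparison of sexes 34 under saline became 59 with the score, 54 with DESeq2 and 21 to 41 without 1 library, and 28 under cisplatin became 58, 119 and 12 to 120. The cause was not tested. The female calls of Socs3, Bcl3 and Lcn2 were lost with the compared groups alone (adjusted p = 0.0718, 0.0645 and 0.0524) and with the replicate block (0.207, 0.105 and 0.199).

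Libraries of the same number in 2 groups did not deviate together (median r from -0.0919 to 0.13 over the 6 pairs of groups), so the numbers were not taken as pairs. With libraries this variable, small changes of Mtf1 and Slc39a14 in females were not measurable, and Mt2 and Mt3 rest on few counts under saline.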
